A study of Mus musculus with 6 samples.

Results

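Msln, Mslnl, Otoa and Strc encode mesothelin, mesothelin-like protein, otoancorin and stereocilin, proteins that share sequence similarity and form a small family. They were 4 of the 52636 genes in the deposited table and were taken by gene symbol. The family was chosen by its measured values as well as by kinship, because Msln was already known to have one of the largest decreases in the comparison of exposed with unexposed animals. The differences between the groups are therefore given for these 4 genes as a description, with no p-value.

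The series measured RNA in the vestibular epithelium, the sensory tissue of the balance organs, by bulk RNA-seq in male 129S1/SvImJ mice 2 to 4 months old. Control animals (n = 3) drank plain water. The mice labelled subchronic ototoxicity (IDPN, n = 3) drank water with 30 mM of 3,3'-iminodipropionitrile, a nitrile toxic to the sensory hair cells (HCs), for 8 weeks, to learn how this tissue responds to slow toxic stress. Each library came from 1 animal, with 2 utricles and 6 cristae pooled, so differences between these organs are not resolved. In bulk tissue, fewer cells of a type and less RNA per cell cannot be told apart. The titles of all Control samples begin with a common code that is absent from the IDPN samples, and whatever goes with that code cannot be told apart from the exposure.

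Mesothelin is a surface protein held by a glycosylphosphatidylinositol (GPI) anchor. It is best known from the mesothelium that lines body cavities and from tumours, and it binds the mucin encoded by Muc16. Mesothelin-like protein is named for its similarity to it, and its gene lies beside Msln. Otoancorin sits on the apical surface of nonsensory cells of the inner ear, where it attaches the acellular gels (the tectorial membrane, the otoconial membrane and the cupula) that carry mechanical force to HCs. Stereocilin is made by HCs and belongs to the links that join the tips of neighbouring stereocilia and that attach the tallest stereocilia to the overlying gel. Loss of Otoa or of Strc causes hereditary deafness.

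On the GRCm38 build, Msln (ENSMUSG00000063011.6) lies at chr17:25748613-25754378 on the minus strand. Mslnl (ENSMUSG00000041062.6) lies at chr17:25736042-25748330 on the plus strand, so that the 3′ ends of the neighbours face each other across 282 bases. Otoa (ENSMUSG00000034990.15) is at chr7:121081650-121163097 on the plus strand, and Strc (ENSMUSG00000033498.14) is at chr2:121363728-121387168 on the minus strand. In the longest coding transcript, Msln and Mslnl each have 16 exons, whereas Otoa and Strc each have 29. The coding sequences are 1875 bases long in Msln, 2055 in Mslnl, 3411 in Otoa and 5427 in Strc.

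How far reads of one member could be taken for another was read from these sequences. The stretches below hold the longest run of identical coding bases of a pair of members, in capitals, with up to 20 coding bases on each side. They are shown because kinship of the proteins could lead one to expect shared reads. The pair of neighbours on chromosome 17 had the shortest such run, 10 bases, in exon 1 of Msln (chr17:25754162-25754211, minus strand) and exon 7 of Mslnl (chr17:25743152-25743201, plus strand).
Msln: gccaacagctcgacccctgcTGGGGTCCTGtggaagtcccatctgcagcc
Mslnl: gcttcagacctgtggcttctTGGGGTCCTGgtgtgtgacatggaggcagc
Otoa and Strc, the members tied to gels and hair bundles, shared 13 bases, in exon 8 of Otoa (chr7:121102644-121102696, plus strand) and exon 4 of Strc (chr2:121377146-121377198, minus strand).
Otoa: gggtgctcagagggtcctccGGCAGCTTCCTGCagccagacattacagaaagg
Strc: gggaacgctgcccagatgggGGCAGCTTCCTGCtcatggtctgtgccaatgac
The longest run in any of the 6 pairs was 14 bases, between Msln and Strc. Of all 50-base windows of the longest coding transcripts (2116 in Msln, 2577 in Mslnl, 3724 in Otoa and 5707 in Strc), none occurred in another member. Windows of Mslnl occurred in another annotated gene in 43 cases (1.67%), all in the microRNA gene Gm25083, which is listed at 0 in the 6 libraries. No window of Msln, Otoa or Strc occurred in another annotated transcript. Strc and its convergent neighbour Ckmt1 overlap by 10 bases.

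The estimated count of each gene was divided by the size factor of its library to give a normalized count, which can be compared between libraries for 1 gene. Total estimated counts ran from 40474847 to 43566332 per library, and size factors from 0.824 to 1.21.

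Msln was 8.6-fold lower in IDPN. In Control 1 to 3 its normalized counts were 1284, 1603 and 1358, against 192, 105 and 195 in the exposed animals IDPN 1 to 3. Every IDPN library lay far below every Control library, and IDPN 2 was the lowest. The group means were 1415 ± 167 and 164 ± 50.9 (SD, n = 3 per group), so the IDPN mean was 11.6% of the Control mean. The fitted log2-Fold_Change was −3.10 (SE 0.23). Among the 11770 genes whose mean normalized count reached 100, only 6 had a lower log2-Fold_Change. This size was part of what singled the gene out.

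Mslnl, the neighbouring gene, had normalized counts of 363, 336 and 460 in Control 1 to 3. In IDPN 1 to 3 they were 314, 251 and 136. The groups did not overlap on this scale, but IDPN 1 lay close below Control 2, and IDPN 3 was the lowest by a wide margin. Control animals averaged 386 ± 65.3 and IDPN animals 234 ± 90.0 (SD, n = 3 per group), and the fitted log2-Fold_Change was −0.72 (SE 0.29). Counts per 1000000 of the library total (CPM), which use no other scaling, were 7.07, 6.86 and 11.9 for the Control animals against 9.12, 5.74 and 3.61 for the IDPN animals, and the groups then overlapped.

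Otoa was the most abundant member by far. Control 1 to 3 held 57110, 52780 and 40380 normalized counts, whereas IDPN 1 to 3 held 29060, 42780 and 31860. IDPN 2 lay above Control 3, so the groups overlapped. The means were 50090 ± 8684 and 34570 ± 7251 (SD, n = 3 per group), and the fitted log2-Fold_Change was −0.54 (SE 0.19). Its mean normalized count ranked 104 among all genes in the table. On the CPM scale the Control libraries were close together at 1114, 1078 and 1047, and the IDPN libraries, at 845, 978 and 844, all lay below them. Whether the groups of Otoa overlapped thus depended on the scaling.

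Strc, the HC member, stood at 189, 221 and 334 normalized counts in Control 1 to 3 against 214, 198 and 220 in IDPN 1 to 3. The IDPN libraries all fell inside the Control range, and Control 3 stood above the other 5 libraries. Control averaged 248 ± 76.0 and IDPN 211 ± 11.5 (SD, n = 3 per group). The log2-Fold_Change was −0.24 (SE 0.26), smaller than its error. Without Control 3 it became 0.04.

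**Figure D1:**
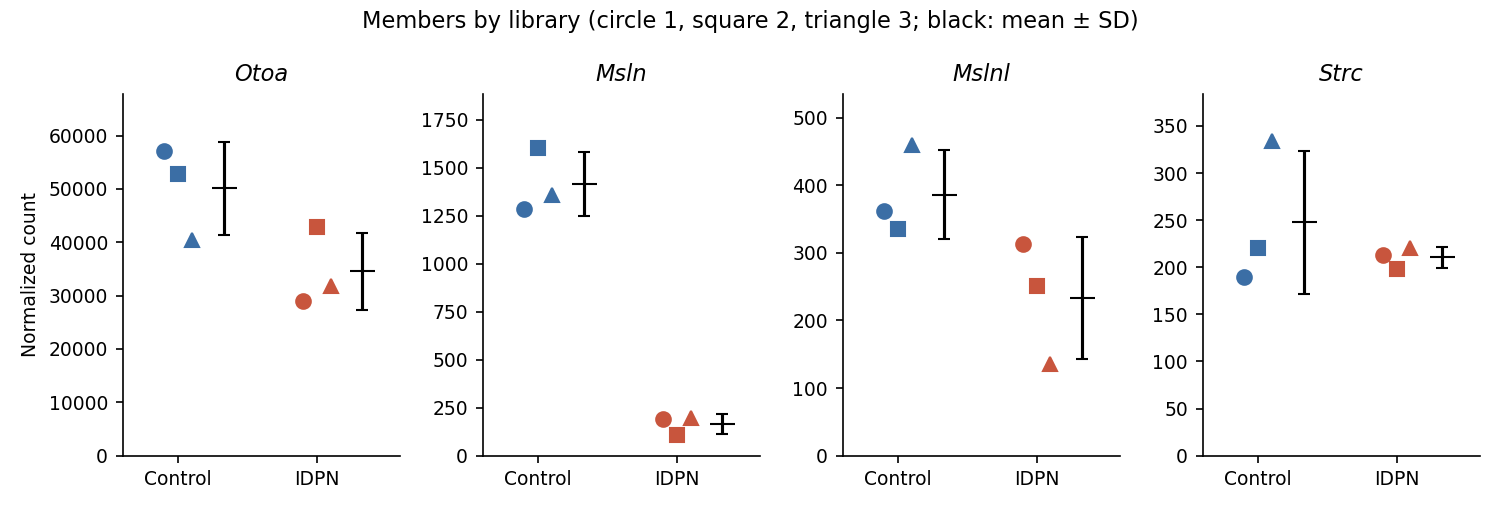
Normalized counts (y axis, from 0, a separate scale per gene) of the 4 members in each of the 3 Control (blue) and 3 IDPN (red) libraries, with the group mean ± SD in black; circle, square and triangle are libraries 1, 2 and 3 of a group. Msln lies between 1284 and 1603 in Control and between 105 and 195 in IDPN, whereas the groups of Otoa and Strc overlap.

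A gene was called when the adjusted p of DESeq2 (Padj, Benjamini-Hochberg over all 17650 genes tested) was under 0.05 and its fold change exceeded 1.5. Of the 4 members, 1 was called, Msln, in the direction lower in IDPN, and the other 3 were not. Over all genes tested 3.42% were called lower and 2.32% higher, that is 604 and 410 genes. With size factors proportional to total counts this balance turned to 214 lower and 609 higher. For 2 of the 4 members, Msln and Mslnl, the groups did not overlap, beside 22.5% of all genes tested. Since the same contrast entered the choice of the family, nothing is read from these counts.

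The size of the Msln difference varied little with the processing, and those of the other members varied in proportion more. The log2-Fold_Change of Msln was −3.10 with edgeR, −2.82 with size factors proportional to total counts, and between −3.25 and −2.87 when 1 library was left out. Scaling by total counts raised the log2-Fold_Change by a median of 0.25 among genes with at least 10 counts in 3 libraries. On that scale Mslnl stood at −0.49, Otoa at −0.28 and Strc at −0.02. Leaving out 1 library gave values from −0.99 (without IDPN 1) to −0.45 (without IDPN 3) for Mslnl, and from −0.72 to −0.42 for Otoa.

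**Figure D2:**
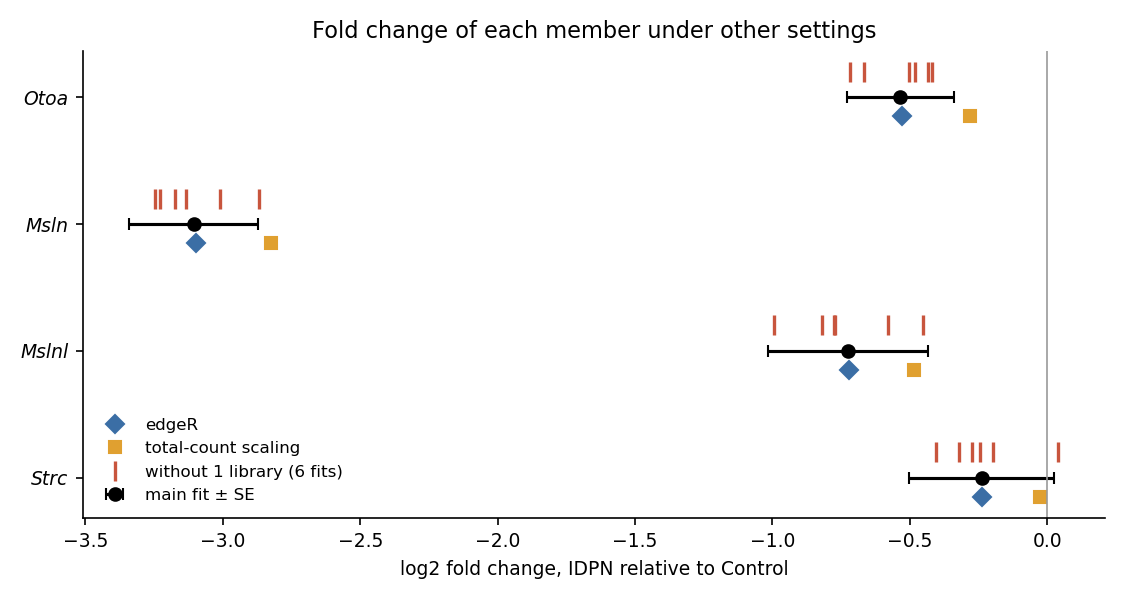
Log2-Fold_Change of IDPN relative to Control (x axis) for each member from DESeq2 (black, bar = SE), from edgeR (blue diamond), from total-count scaling (yellow square) and with each of the 6 libraries left out in turn (red ticks). Msln stays between −3.25 and −2.82, and Strc reaches 0.04 when Control 3 is left out.

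To put the members in order, counts were divided by the length of the longest annotated transcript and scaled so that all genes of a library sum to 1000000 (per-length level). In Control the per-length levels were 452 ± 7.62 for Otoa, 26.1 ± 5.08 for Msln, 6.02 ± 2.22 for Mslnl and 1.79 ± 0.913 for Strc (SD, n = 3 per gene). The order from Otoa to Msln, Mslnl and Strc was the same in all 3 Control libraries, and the ranges of neighbours in it did not overlap. In IDPN the per-length levels were 395 ± 35.3 for Otoa, 3.91 ± 1.56 for Msln, 4.55 ± 2.15 for Mslnl and 1.85 ± 0.31 for Strc (SD, n = 3 each). Msln and Mslnl changed places in IDPN 1 and IDPN 2 but not in IDPN 3, and their ranges overlapped, so these 2 could not be ordered in IDPN. Strc stayed lowest in all 6 libraries, although its highest IDPN level, 2.13, was just under the lowest of Msln, 2.15.

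The ratio of Msln to Mslnl per length shows the exchange within single libraries, free of any size factor. It was 4.3, 5.79 and 3.58 in Control 1 to 3, but 0.742, 0.509 and 1.74 in IDPN 1 to 3. All IDPN ratios were thus below all Control ratios. The per-length ratio of Otoa to Msln was 22.1, 16.4 and 14.8 in the Control animals but 75.4, 202 and 81.4 in the IDPN animals. It was highest in IDPN 2, the library with the least Msln. Otoa made up 91.5% to 94.5% of the summed per-length level of the 4 genes in Control and 96.5% to 98.2% in IDPN. Msln contributed between 4.27% and 6.18% of the sum in Control and between 0.486% and 1.28% in IDPN.

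**Figure D3:**
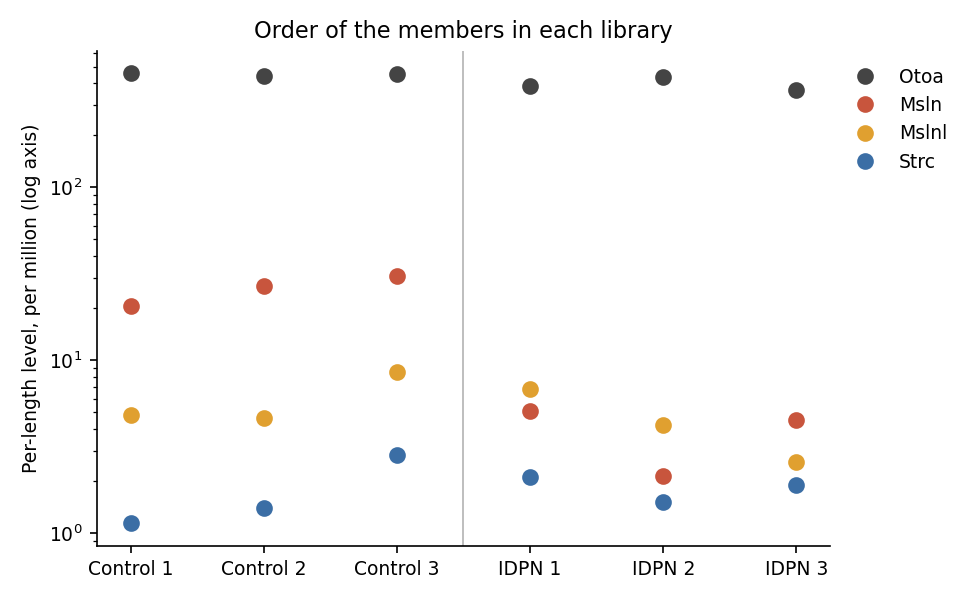
Per-length level (y axis, log scale) of Otoa (grey), Msln (red), Mslnl (yellow) and Strc (blue) in the 3 Control and 3 IDPN libraries (x axis). The order is the same in all Control libraries, and Msln drops below Mslnl in IDPN 1 and IDPN 2.

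Marker genes of the cell types of the epithelium also differed between the groups. Of 20 HC marker genes, 8 were called lower and none higher, among them the HC transcription factor Gfi1 (log2-Fold_Change −1.21, DESeq2 Padj = 2.87e-10) and Otof, which encodes the calcium sensor of the HC synapse (−0.75, DESeq2 Padj = 1.71e-05). Of these genes edgeR called 7. Total-count scaling left 4 calls, with Gfi1 (DESeq2 Padj = 0.00811) but not Otof (DESeq2 Padj = 0.196). Estimates were lower in IDPN for 18 of the 20 and higher for 2, Rasd2 (0.53, DESeq2 Padj = 0.289) and Myo7a (0.01, DESeq2 Padj = 0.987). The lowest was −1.98, for Ocm, so the HC markers did not move by a common amount. The summed normalized count of the HC markers ran from 54320 to 59860 in Control and from 38070 to 42020 in IDPN. The sum of 11 supporting cell markers ran from 312200 to 442600 in Control and from 221100 to 264400 in IDPN, with 1 gene called lower, Gjb6, which encodes a gap junction connexin (−0.94, DESeq2 Padj = 2.8e-05, edgeR adjusted p = 0.069). Gjb6 and Gjb2 together made up 68% of the Control sum of this list. Of the 11 supporting cell markers, 7 had lower and 4 had higher estimates in IDPN.

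Each member was set against these sums within each library. Per 1000 counts of HC markers, Msln had 23.6, 26.8 and 24.6 counts in Control 1 to 3, against 5.03, 2.51 and 5.12 in IDPN 1 to 3, so it was lower also relative to the HC markers. Per 1000 supporting cell marker counts, Msln went from a range of 2.9 to 4.45 in Control to 0.399 to 0.868 in IDPN. Otoa had 129, 146 and 129 counts per 1000 of supporting cell markers in Control and 131, 162 and 139 in IDPN, and these ranges overlapped. Since Gjb6 and Gjb2 made up most of the supporting cell sum, the ratios of Msln and Otoa to it rest mainly on that pair. Strc had 3.48, 3.68 and 6.04 counts per 1000 of HC markers in Control and 5.6, 4.71 and 5.78 in IDPN, again with overlap. Mslnl had 6.68, 5.61 and 8.32 in Control and 8.22, 5.97 and 3.58 in IDPN on the same scale. The part that a change in cell makeup has in the differences of the members was not tested.

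Msln is a defining gene of mesothelium, so markers of that tissue were read as well. Upk3b and Muc16, the gene of the binding partner of mesothelin, were at 0 estimated counts in all 6 libraries, which allows up to 3 counts per library. Of 10 mesothelial markers 6 could be tested and none was called (2 at an unadjusted p under 0.05, 0 with edgeR). Wt1, a transcription factor of mesothelium, averaged 46.1 ± 24.1 normalized counts in Control against 40.8 ± 4.73 after IDPN (SD, n = 3 per group). The summed count of the list ran from 11510 to 20000 in Control and from 9979 to 11630 in IDPN, and most of it was Gpm6a (14790 ± 4330 and 10550 ± 924, SD, n = 3 each), which encodes a neuronal membrane glycoprotein. The estimates were lower in IDPN for Wt1 and Gpm6a and higher for the other 4 tested. Among those, the uroplakin gene Upk1b averaged 245 ± 47.8 in Control against 358 ± 44.03 after IDPN (SD, n = 3 per group, log2-Fold_Change 0.55, DESeq2 Padj = 0.153), its groups did not overlap, and it was called higher with total-count scaling (DESeq2 Padj = 0.0418).

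Otoancorin holds acellular gels, and 17 genes tied to gels and otoconia were described beside Otoa. Of these, 2 were called lower and none higher. They were Sparcl1, for a matricellular protein of the SPARC family (log2-Fold_Change −0.59, DESeq2 Padj = 0.0365), and Zpld1, for a zona pellucida domain protein of the cupula (−0.70, DESeq2 Padj = 0.0245). Both calls were lost with edgeR (adjusted p = 0.248 and 0.152), with total-count scaling, and without Control 1, Control 2, IDPN 1 or IDPN 3. The groups of Zpld1 overlapped, since its normalized count was 12100 in Control 3 and 12650 in IDPN 2. Sparc (−0.58, DESeq2 Padj = 0.0255) and the otogelin gene Otog (−0.50, DESeq2 Padj = 0.0205) passed the p threshold with a fold change under 1.5. The median log2-Fold_Change of the list was −0.18, beside 0.02 over all genes tested, and that of Otoa was −0.54. Per 1000 counts of this list, Otoa had 153, 160 and 146 counts in Control and 135, 159 and 149 in IDPN, and these ranges also overlapped. Sparcl1 and Sparc together made up 68% of the list's Control sum, so this ratio rests mainly on that pair. Otog, Otogl and Tecta are also supporting cell markers above, so the sums of both lists share their counts.

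Stereocilin belongs to the links of the hair bundle, and 18 genes for links, their anchors and the transduction channel were described beside Strc. Of these, 5 were called lower and none higher. Ptprq, for a receptor phosphatase of the stereocilia shaft, averaged 22560 ± 1706 normalized counts in Control against 7730 ± 1180 after IDPN (SD, n = 3 per group, log2-Fold_Change −1.54, DESeq2 Padj = 5.09e-18). The tip link gene Pcdh15 fell by 1.12 (DESeq2 Padj = 0.000554), and Lhfpl5, of the transduction complex, by 0.66 (DESeq2 Padj = 0.000685) on the log2 scale. These 3 kept their calls in every fit that left out a library and with edgeR, and with total-count scaling only Ptprq did. The channel genes Tmc1 (−0.70, DESeq2 Padj = 0.0231) and Tmc2 (−0.98, DESeq2 Padj = 0.0239) lost theirs with edgeR (adjusted p = 0.102 and 0.0983). Leaving out Control 1, Control 3 or IDPN 3 ended both calls, as did leaving out IDPN 2 for Tmc1 and Control 2 or IDPN 1 for Tmc2.

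The other abundant genes of that list were not called. Ush1c, for the tip link anchor protein harmonin, stood at −0.57 (DESeq2 Padj = 0.00527), Cib2 at −0.25 (DESeq2 Padj = 0.46) and Clrn1 at −0.14 (DESeq2 Padj = 0.826). The median of the list was −0.40, against −0.24 for Strc itself. Per 1000 counts of the list, Strc had 3.43, 4.04 and 6.45 counts in Control and 6.89, 6.36 and 7.72 in IDPN. IDPN 2 stood just below Control 3 on this ratio, and the other IDPN libraries were above all Control libraries. Ptprq and Ush1c together made up 75.5% of the list's Control sum. Without these 2 genes the ratio was 15.7, 17.7 and 22.3 for Control 1 to 3 against 18.8, 19.8 and 23 for IDPN 1 to 3, and the groups overlapped more widely. Myo7a, Cib2, Lhfpl5, Tmie, Tmc1 and Loxhd1 are also HC markers above, so the calls of Lhfpl5 and Tmc1 count in both lists.

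Mesothelin needs a GPI anchor, and 28 genes were tested beside Msln. All build, transfer or remodel this anchor except Furin, for a convertase that cleaves the mesothelin precursor (log2-Fold_Change 0.31, DESeq2 Padj = 0.481). With DESeq2 none was called in either direction, 4 had an unadjusted p under 0.05, and edgeR called 0. Their estimates were lower in IDPN for 19 genes and higher for 9, with a median log2-Fold_Change of −0.08. The most abundant were Pigs (−0.06, DESeq2 Padj = 0.915) and Pigq (−0.26, DESeq2 Padj = 0.424), with Pigp (−0.34, DESeq2 Padj = 0.317) and Dpm1 (−0.40, DESeq2 Padj = 0.186) next. No gene of the list had a decrease near that of Msln.

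**Figure D4:**
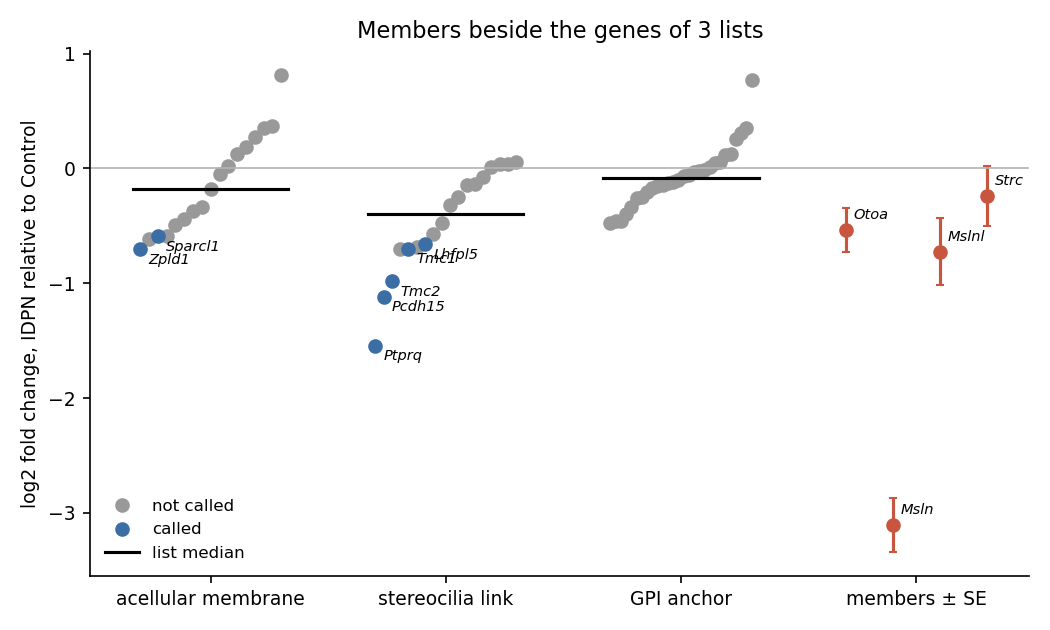
Log2-Fold_Change of IDPN relative to Control (y axis) for each tested gene of the acellular membrane, stereocilia link and GPI anchor lists (blue = called, grey = not called, black line = list median) and for the 4 members (red, bar = SE). Msln, at −3.10, lies below every gene of the 3 lists, of which Ptprq is the lowest.

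The genes around each member were read for the same contrast. Within 50 kb of Msln, and apart from Mslnl, 7 genes averaged at least 10 normalized counts. With DESeq2 none of them was called (1 at an unadjusted p under 0.05, 0 with edgeR). Their log2-Fold_Change ran from −0.45 for Chtf18 to 0.26 for the noncoding Gm26694. Between these lay Fam173a (−0.38), Narfl (−0.28), Haghl (−0.16), Rpusd1 (−0.11) and Metrn (0.08). The same 7 genes lay within 50 kb of Mslnl.

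Around Otoa, 5 genes reached that level and 1 of them rose. This was Gm44901, an unconfirmed transcript 25328 bases upstream on the same strand, averaging 9.85 ± 1.19 normalized counts in Control against 40.2 ± 18.2 after IDPN (SD, n = 3 per group, log2-Fold_Change 2.02, DESeq2 Padj = 0.0218). It was not called with edgeR (adjusted p = 0.0685) or without Control 1, Control 2, IDPN 2 or IDPN 3. The others were Mettl9 (0.06), 2210406H18Rik (0.34), Igsf6 (0.79) and Gm45137 (1.20), and none was called. Around Strc none of 4 genes was called by DESeq2, at an unadjusted p under 0.05, or by edgeR. These were Ppip5k1 (0.42), the mitochondrial creatine kinase gene Ckmt1 (0.02), the sperm channel gene Catsper2 (−0.19) and the protein disulfide isomerase gene Pdia3 (−0.20).

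**Figure D5:**
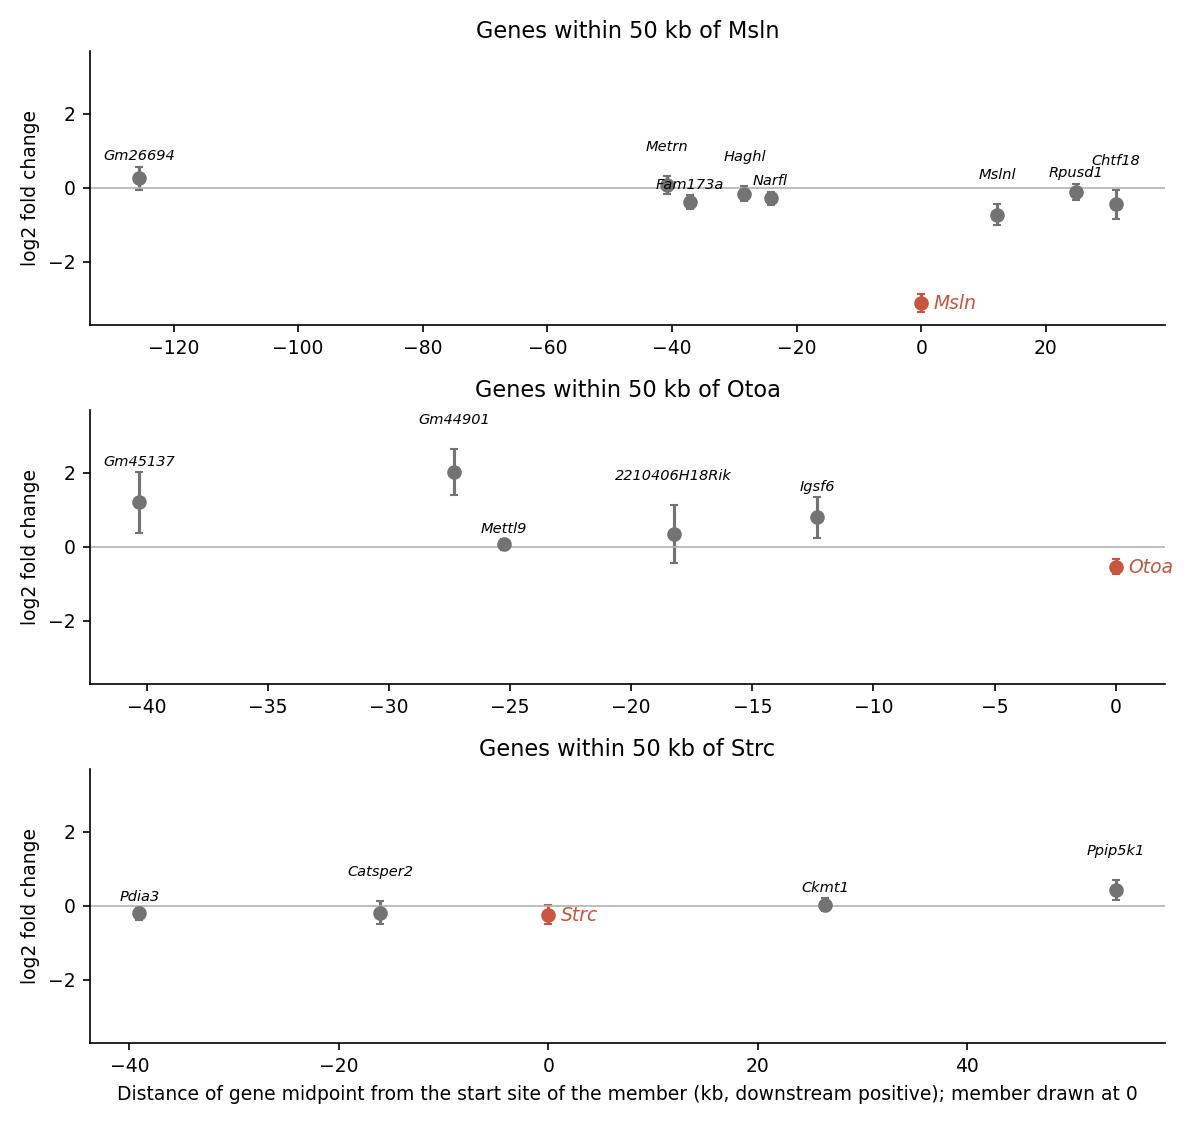
Log2-Fold_Change of IDPN relative to Control (y axis, bar = SE) of genes that average at least 10 normalized counts and whose span comes within 50 kb of Msln, Otoa or Strc, against the distance of their midpoint from the start site of the member (x axis, kb, downstream positive). The member is drawn in red at 0; Msln, at −3.10, is far below its neighbours, which lie between −0.72 (Mslnl) and 0.26.

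The genes whose pattern over the 6 libraries was most like that of each member were read among the same 11770 abundant genes, by Pearson's r on log2 (normalized count + 1). The 6 points fall into 2 groups and share their size factors, so these values only describe. For Msln they were Fbxw7, a ubiquitin ligase subunit gene (r = 0.999), Cbln4 (0.996), Tmem167 (0.996), Cntnap2 (0.995) and Otof (0.995). Pearson's r does not reflect the size of a difference. The log2-Fold_Change was −2.53 for Fbxw7, −4.56 for Cbln4, −0.28 for Tmem167, −1.41 for Cntnap2 and −0.75 for Otof. Normalized counts of Fbxw7 were 1615, 1708 and 1617 in Control 1 to 3, against 306, 206 and 343 in IDPN 1 to 3. Like Msln it was lowest in IDPN 2.

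For Mslnl the genes were Pum3 (0.99), Tomt, which is needed for HC mechanotransduction (0.987), Orc3 (0.986), Pcdhgb7 (0.982) and Fmo1 (0.981). For Otoa they were Rcn1 (0.996), Wbp1 (0.996), Gad1 (0.996), Twf2 (0.994) and the actin regulator gene Gsn (0.992). Rcn1 stood at 53790, 49700 and 41770 normalized counts in the Control animals against 30950, 41480 and 33370 in the IDPN animals, and as with Otoa, Control 3 and IDPN 2 lay side by side. For Strc they included Pnpla3 (0.996), Rhobtb1 (0.993), the mitochondrial chaperonin gene Hspe1 (0.982) and Zfp956 (0.978). Hspe1 stood at 1320, 1789 and 4775 normalized counts in the Control animals against 1795, 1585 and 1568 in the IDPN animals, and its highest library was Control 3, as it was for Strc.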

How the data were processed

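Per the labels, total RNA of 6 animals (3 Control, 3 IDPN, 1 batch) was copied from an oligo-dT primer by SMART-seq2 and amplified without molecular identifiers, so counting error understates the true error. The authors aligned reads with STAR 2.5.3a to GRCm38 and deposited expected counts per gene (RSEM 2.3.0, GENCODE annotation) as whole numbers, with no normalization or filter. RSEM splits reads shared by genes.

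The 4 genes and all gene lists were chosen with earlier results of these data known. As in the study's methods, DESeq2 (1.42.0, R 4.3.3) was fitted to all genes without covariates (size factors by median of ratios), with thresholds of Padj 0.05 and a fold change of 1.5. For 40 genes Cook's filter removed the p-value. The quasi-likelihood test of edgeR (4.0.16) was an alternative, as were total-count scaling, a low-count filter (10 counts in 3 libraries), no independent filtering, no Cook's filter, no fold-change threshold, and leaving out each library. The code was tested on simulated data.

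Coordinates, lengths (52403 genes, 99.6%) and coding sequences came from GENCODE M21 on GRCm38, a later release than the authors'. The longest annotated Otoa transcript is a retained intron, so 2 other lengths were tried after seeing the data, as was the stereocilia link sum without Ptprq and Ush1c. The text names the members, each called gene and the 4 most abundant genes of the acellular membrane, stereocilia link and GPI anchor lists, the flanking genes (50 kb) with a mean of at least 10, the 5 genes most like each member, and some marker genes. Markers of 9 cell types were read as sums. Not every gene that met these rules is reported here. Protein and promoter sequences of the family were not used here.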

Additional observations from a re-analysis of the deposited data

How the results depend on the processing

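Among the alternatives run, the log2-Fold_Change of Msln, Mslnl and Otoa kept its sign in all of them, and that of Strc in all but the fit without Control 3 (0.04). Leaving out 1 library gave −3.25 to −2.87 for Msln, −0.99 to −0.45 for Mslnl, −0.72 to −0.42 for Otoa and −0.40 to 0.04 for Strc. Over the whole table the 604 lower calls became 357 with edgeR and 214 with total-count scaling, and 436 to 720 without 1 library. The 410 higher calls became 166 with edgeR, 609 with total-count scaling (which thus reversed the balance of higher and lower calls) and 234 (without IDPN 2) to 611 (without Control 3) without 1 library, with 243, 246 and 265 without Control 1, Control 2 and IDPN 3. For the acellular membrane genes, 2 lower calls became 0 with edgeR, 0 with total-count scaling, 1 without independent filtering, 4 without the fold-change threshold, and 0 to 3 without 1 library, and 0 higher calls became 1 with total-count scaling. The 5 lower calls among stereocilia link genes became 3 with edgeR, 1 with total-count scaling and 3 (without Control 1) to 5 without 1 library. For GPI anchor genes, 0 lower calls became 1 without the fold-change threshold, and without Control 3 there was 1 lower and 1 higher call (0 to 1 over the 6 fits). The causes were not tested. The mean per-length ratio of Otoa to Msln was 17.8 in Control and 120 in IDPN, 20.5 and 138 with the longest coding transcript, and 13.0 and 87.2 with merged exons. No paired analysis was made, because each animal was either Control or IDPN and the labels give no pairing. With 3 animals per group, an exact permutation test of a single value cannot give a p below 0.1.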

Other observations

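Marker lists of other cells near the sensory epithelium were read in the same way. For dark, transitional and other nonsensory cells, the summed normalized count of the markers ran from 24940 to 37930 in Control and from 24550 to 29960 in IDPN. Among 7 stromal genes 1 rose, Postn, which encodes the matrix protein periostin (log2-Fold_Change 1.53, DESeq2 Padj = 0.0298), with 0 calls by edgeR and sums of 20510 to 39080 in Control and 36120 to 38790 in IDPN. The Postn call was also lost without Control 1, Control 2, IDPN 1 or IDPN 3, and total-count scaling gave 2 higher calls in this list. Of 5 neuronal genes tested, 3 fell, namely the neurofilament genes Nefl (−0.59, DESeq2 Padj = 0.00212) and Nefm (−0.64, DESeq2 Padj = 0.0218) and the synaptic gene Snap25 (−0.96, DESeq2 Padj = 0.000168), of which edgeR called 2 and total-count scaling 0 (DESeq2 Padj = 0.377, 0.295 and 0.124). Nefl kept its call in 3 and Nefm in 2 of the 6 fits without 1 library, and Snap25 in all 6. The other 2 tested were not called. These were Tubb3 (−0.20, DESeq2 Padj = 0.953) and Prph, which was higher in IDPN without overlap of the groups (1.51, DESeq2 Padj = 0.148). The neuronal sum was 4916 to 5123 in Control and 3101 to 3402 in IDPN. Nefl and Nefm made up 86.2% of the Control sum, so it rests mainly on that pair. DESeq2 and edgeR called 0 of 6 Schwann cell, 0 of 7 macrophage and 0 of 6 melanocyte genes, with 3 genes of each list at an unadjusted p under 0.05. With total-count scaling, 4 melanocyte genes were called higher, Tyrp1 (log2-Fold_Change 1.80, DESeq2 Padj = 4.55e-06), Mlana (1.13, DESeq2 Padj = 0.0198), Dct (0.98, DESeq2 Padj = 0.0246) and Tyr (0.97, DESeq2 Padj = 0.0378), as was the macrophage gene C1qc (1.07, DESeq2 Padj = 0.00745). The Schwann cell sum was 88400 to 205300 in Control and 78740 to 94890 in IDPN, with Control 1 the highest. The macrophage sum was 1986 to 2794 in Control and 2372 to 3488 in IDPN, and the melanocyte sum 6366 to 14360 and 14610 to 22130.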
